A study of Rattus norvegicus with 20 samples.

Results

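Cadherins are surface proteins that hold cells together by binding like molecules on the neighbouring cell, with calcium. Protocadherins are their most numerous relatives in the brain. The clustered protocadherins are made from 3 neighbouring gene arrays (alpha, beta and gamma), and each neuron uses its own choice of them, which lets its branches recognise and avoid each other. Catenins tie the cadherin tail to the actin cytoskeleton, and beta-catenin also carries Wnt signals to the nucleus. In cortex this family is known for axon outgrowth, target choice and synapse assembly. The genes described here were those whose array name was Cdh followed by a digit, began with Pcdh, or began with Ctnna, Ctnnb or Ctnnd, leaving out Cdh13. This gave 50 genes on 63 probes among 41012 probes: 18 cadherins, 11 protocadherins outside the clusters by name, 20 clustered protocadherins and 1 catenin, Ctnnb1. The brightest probe stood for a gene.

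The study compared neurons its labels call sprouting with neurons they call non-sprouting, taken by laser from rats aged 2 months after a stroke. A cholera toxin B tracer with an Alexa dye was placed beside the infarct, a second one of another colour went into the same site 21 or 7 days later, and about 300 neurons of each type were captured 7 days after that. Day 21 and day 7 were separate cohorts of 5 animals each. RNA of both types from 1 animal went through 2 rounds of T7 amplification and was hybridised together on 2-colour rat arrays, with 2 dye-swapped arrays per animal and 20 in all. Ratios divide the sprouting by the non-sprouting signal of an animal, on the log2 scale, averaged over its 2 arrays, so that 1 is a 2-fold difference. P-values measure the spread between animals. The labels give no sham or uninjured animals, so all neurons came from brains with a stroke and a double tracer injection.

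Median spot signals per array lay between 98.7 and 345 intensity units in Cy5 and between 134 and 281 in Cy3, and the number of arrays limits the precision. Ratios of an animal's 2 arrays correlated with r between 0.33 and 0.73 over genes in 9 animals. In day 21 replicate 4 the correlation was -0.36, and its ratios spread over genes with an SD of 0.065, against 0.155 to 0.239 in the other animals, and whether the dye label of 1 of its arrays is reversed was not tested. Its sign in any member carries little, and the leading day 21 means are given without it as well. Of the neuron markers Snap25, Rbfox3, Map2, Syt1, Nefl and Eno2, all but Map2 lay well above background in both channels of all 20 arrays. So did 8 of 9 GABAergic markers, 3 of 8 glutamatergic ones, and 6 of 12 oligodendrocyte, 6 of 9 astrocyte, 6 of 9 microglial and 9 of 13 endothelial and mural ones. In captured pools of this kind, fewer cells of a type and less RNA per cell cannot be told apart.

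No cadherin, protocadherin or catenin differed between sprouting and non-sprouting neurons at an adjusted p under 0.05 on either day, over both days, or between the days. Of the 50 genes, 47 lay well above background often enough to be tested and 3 did not (Cdh1, Cdh20 and Pcdhb1). At day 21, 24 were higher (48.9% of all genes were) and 23 lower in sprouting neurons, with a median ratio of 0.002, beside -0.001 over all 33094 genes tested. At day 7, 18 were higher (46.5% of all genes were) and 29 lower, and the median ratio was -0.031, beside -0.005 over all genes. The mean of both days was higher for 22 members, beside 46.9% of all genes, and day 21 exceeded day 7 for 21, beside 52.4%. With median centring in place of loess the split was 28 higher and 19 lower at day 21, and 23 higher and 24 lower at day 7.

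The share of all genes called was 0% at day 21, for the mean of both days and for the difference, and 0.00302% at day 7, which is 1 gene, so that 0 of 47 is close to the background. An unadjusted p under 0.05 was reached by 1 of the 47 at day 21, beside 5.80% of all genes, and by 4 at day 7, beside 9.49%. The one at day 21 was lower (2.38% of all genes were lower and 3.42% higher at that p), and at day 7 there were 2 higher, beside 4.51%, and 2 lower, beside 4.98%. For the mean of both days it was reached by 6, beside 11.0%, with 3 higher, beside 5.60%, and 3 lower, beside 5.39%. For day 21 minus day 7 it was reached by 0 members, beside 4.05% of all genes (2.32% higher and 1.73% lower). Ratios of day 21 and day 7 animals did not overlap for 0 of 42 fully measured members, beside 0.760%. The smallest adjusted p among the 47 was 0.84 at day 21, 0.476 at day 7, 0.405 for the mean of both days and 0.943 for the difference (limma with Benjamini-Hochberg adjustment). Without day 21 replicate 4, a run for which the share of all genes is not given, the counts at an unadjusted p under 0.05 were 1 at day 21 and 3 at day 7. The day 21 median over members without that animal was -0.012. Without it the day 21 means were 0.466 for Pcdh7, 0.456 for Pcdh21, 0.382 for Cdh8, 0.184 for Pcdh17 and -0.047 for Cdh2.

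The intervals were narrow for most members, though a narrow one is no tight limit where the probe is dim. The 95% interval of the mean ratio lay within a 1.5-fold difference either way for 43 of 47 members at day 21 and for 41 at day 7. It lay within a 2-fold difference for all 47 at day 21 and for all but Pcdh7 at day 7. These intervals cover the log2 values as computed with an offset of 50, which pulls ratios of dim probes towards 0. Only 12 of the 47 were well above background in both channels of all arrays. With the processed signals some day 21 means left their interval, such as Pcdhb16 (-0.55, interval -0.15 to 0.02) and Cdh15 (-0.27, -0.12 to 0.02). Others stayed inside, such as Cdh2 (-0.01, -0.39 to 0.32). The day 21 intervals include replicate 4, whose member ratios lay between -0.14 and 0.17. The plot of intervals shows the members with wide ones.

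**Figure D1:**
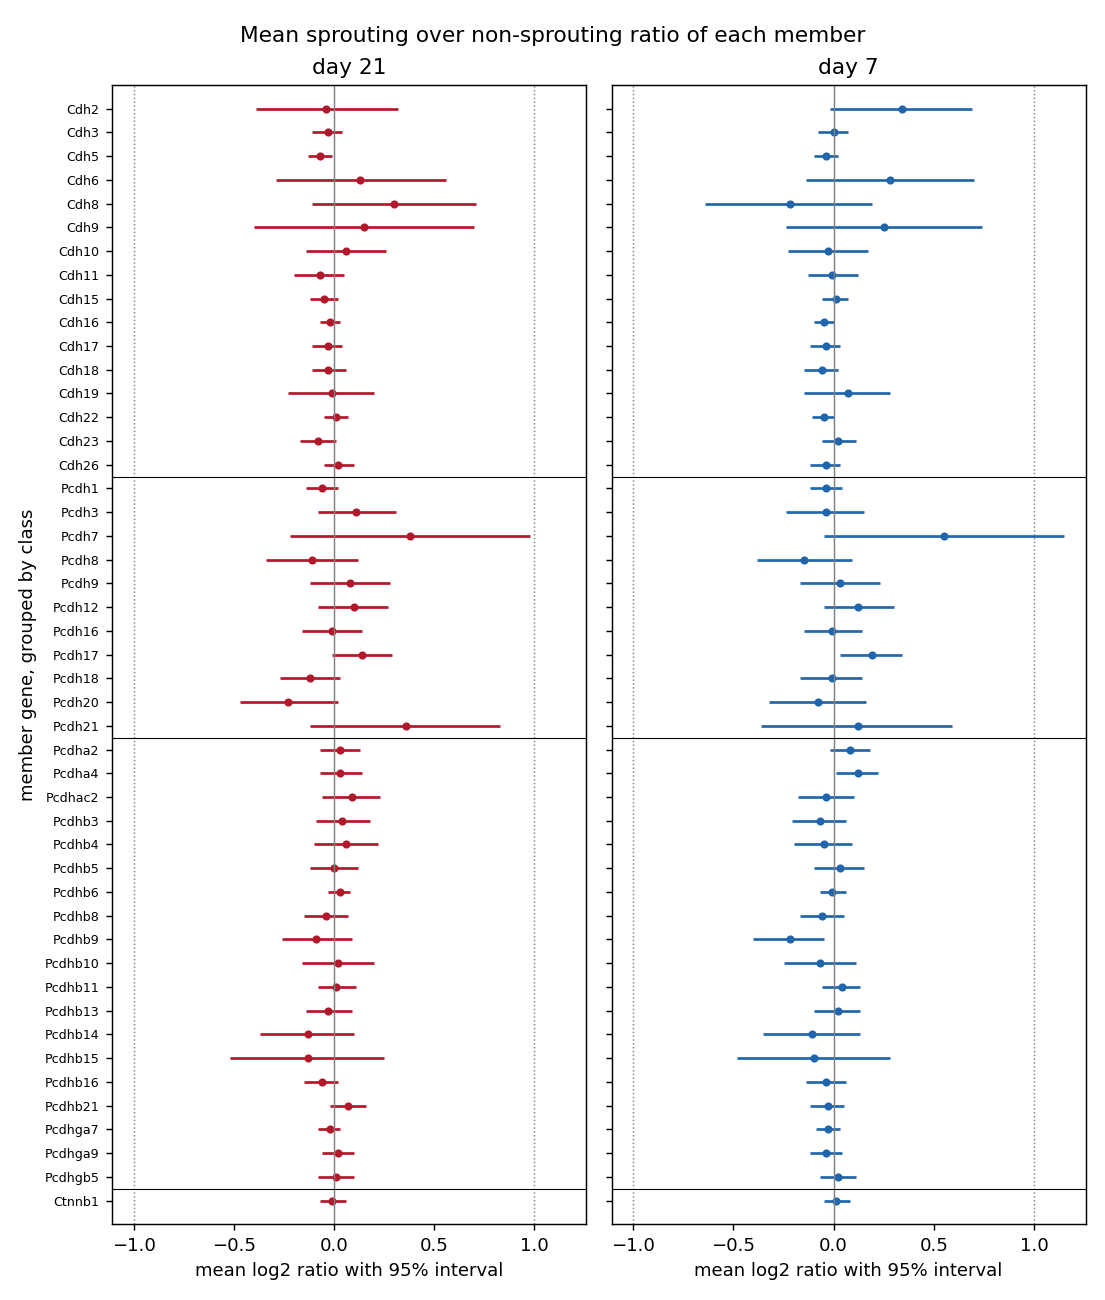
Mean log2 ratio of sprouting over non-sprouting neurons (horizontal axis) for the 47 members tested, day 21 on the left and day 7 on the right, with 95% intervals; dotted lines mark a 2-fold difference. Most intervals are short and hold 0, and those of Pcdh7, Cdh2, Cdh6, Cdh8, Cdh9, Pcdh21 and Pcdhb15 are the long ones.

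Among the cadherins, N-cadherin (Cdh2), the classical cadherin of neurons and of synaptic junctions, had a day 7 mean above those of the other cadherins, though not with median centring (0.17, against 0.18 for Cdh9) or without day 7 replicate 1 (0.235, against 0.325 for Cdh9). Its ratios were 0.39, 0.15, -0.03, 0.00 and -0.70 in the 5 day 21 animals, against 0.75, 0.01, -0.16, 0.47 and 0.62 in the 5 day 7 animals. Sprouting neurons thus had more Cdh2 signal in 4 of 5 animals at day 7 and in 2 of 5 at day 21, and the days overlapped. The mean was -0.04 ± 0.40 at day 21 (SD, n = 5) and 0.34 ± 0.40 at day 7 (SD, n = 5), a 1.26-fold higher mean in sprouting neurons at day 7. Without day 21 replicate 5 the day 21 mean turned to 0.127. Neither the day 7 mean (limma, adjusted p = 0.534) nor the difference between days of -0.38 (adjusted p = 0.943) passed.

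Cdh8, a type II cadherin that marks subsets of cortical neurons and their targets, had means of opposite sign on the 2 days. Its ratios were -0.22, 0.61, 0.55, -0.02 and 0.59 at day 21, against -0.19, 0.03, 0.40, -0.32 and -1.04 at day 7. With this probe, the brighter of 2, sprouting neurons were clearly higher in 3 day 21 animals, 1 day 7 animal was far lower, and the days overlapped. The means were 0.30 ± 0.39 at day 21 and -0.22 ± 0.53 at day 7 (SD, n = 5 each). The difference of 0.53, with a 95% interval of -0.06 to 1.11, did not pass (limma, unadjusted p = 0.0724, adjusted p = 0.943). Without day 7 replicate 5 the day 7 mean was -0.020. A second, dimmer Cdh8 probe read 0.18 ± 0.42 at day 21 and -0.27 ± 0.17 at day 7, lower in all 5 day 7 animals. Per animal it read 0.13, -0.36, 0.42, -0.04 and 0.75 at day 21, against -0.03, -0.22, -0.30, -0.51 and -0.31 at day 7. The 2 probes had opposite signs in day 21 replicates 1 and 2 and in day 7 replicates 2 and 3.

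The brighter Cdh8 probe had the same sign on both arrays in 9 of 10 animals. The animal at -1.04 read -1.09 and -0.99, and the day 21 animal at 0.55 read 0.55 on both arrays. The widest gap was in day 21 replicate 5, at 0.42 and 0.76.

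Cdh6 and Cdh9, type II cadherins found in chosen sets of neurons, varied in the same way. Cdh6 read -0.22, 0.31, 1.05, -0.07 and -0.41 at day 21, against 0.79, 0.04, -0.14, 0.38 and 0.33 at day 7. Cdh9 read 0.52, -0.14, 0.24 and -0.03 in the 4 day 21 animals measured, against -0.04, -0.47, -0.11, 1.26 and 0.62 at day 7. Each gene had values on both sides of 0 on both days, and 1 animal above 1. For Cdh9 the day 7 mean of 0.25 ± 0.69 became -0.001 without replicate 4. No test of the ratios of these 2 genes passed (limma, smallest unadjusted p 0.155, for the mean of both days of Cdh6).

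The other cadherins were close to 0. Cdh10 and Cdh11, further type II cadherins of brain, were small: Cdh10 averaged 0.06 ± 0.16 at day 21 and -0.03 ± 0.27 at day 7, and Cdh11 -0.07 ± 0.14 at day 21 and -0.01 ± 0.11 at day 7. Cdh22, another neuronal cadherin, was lower in sprouting neurons in 5 of 5 day 7 animals, at -0.02, -0.05, -0.04, -0.03 and -0.13, against ratios between -0.02 and 0.07 at day 21. Its second probe read 0.09 ± 0.32 at day 7. Cdh16, known from kidney epithelium, was lower in 5 of 5 day 7 animals by 0.04 to 0.06 (limma, unadjusted p = 0.0396, adjusted p = 0.51). A second Cdh16 probe of almost the same brightness read -0.11, 0.01, 0.01, 0.10 and 0.09 there, higher in 4 of 5. Same-sign ratios in all 5 animals were found for 3 of 44 fully measured members at day 7 (Cdh16, Cdh22 and Cdh26), beside 8.64% of all genes, and for 4 of 44 at day 21 (Cdh5, Pcdh18, Pcdh20 and Pcdh7), beside 8.32%. The Cdh26 value was 0.00 in day 7 replicate 3, from arrays at 0.06 and -0.07, and in day 7 replicate 4, from arrays at 0.10 and -0.11. In day 21 replicate 4 the Pcdh18 value was 0.00, from arrays at -0.22 and 0.22, and that of Pcdh7 was 0.02, from arrays at 0.05 and -0.01. Small means such as these can turn with the scaling: with median centring Cdh26 averaged 0.04 at day 7, Cdh16 0.02 and Cdh22 -0.02 at day 21.

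Cadherins known from cells other than neurons were small as well. Cdh5, the cadherin of endothelial junctions, read -0.11, -0.07, -0.04, -0.10 and -0.04 at day 21, against 0.03, -0.10, -0.07, -0.03 and -0.04 at day 7. Its day 21 mean of -0.07 ± 0.03 was the only member value of that day with an unadjusted p under 0.05 (limma, unadjusted p = 0.0238, adjusted p = 0.84). The 2 arrays of an animal had the same sign for this probe in 6 of 10 animals. A second Cdh5 probe of almost the same brightness read -0.05, -0.05, 0.01, -0.06 and -0.05 at day 21. The median ratio of 12 endothelial and mural markers was between -0.15 and 0.01 in the day 21 animals, and between -0.42 and 0.08 in the day 7 animals. Whether these cells took part in the Cdh5 value was not tested. Cdh19, known from glia, averaged -0.01 ± 0.16 at day 21 (0.01 with median centring) and 0.07 ± 0.29 at day 7. Cdh1, the epithelial cadherin, was well above background on 10% of day 21 arrays and 30% of day 7 arrays in the sprouting channel, against 0% and 40% in the non-sprouting channel. For Cdh20 the share was 0% in sprouting neurons on both days, against 10% at day 21 and 0% at day 7 in non-sprouting neurons.

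**Figure D2:**
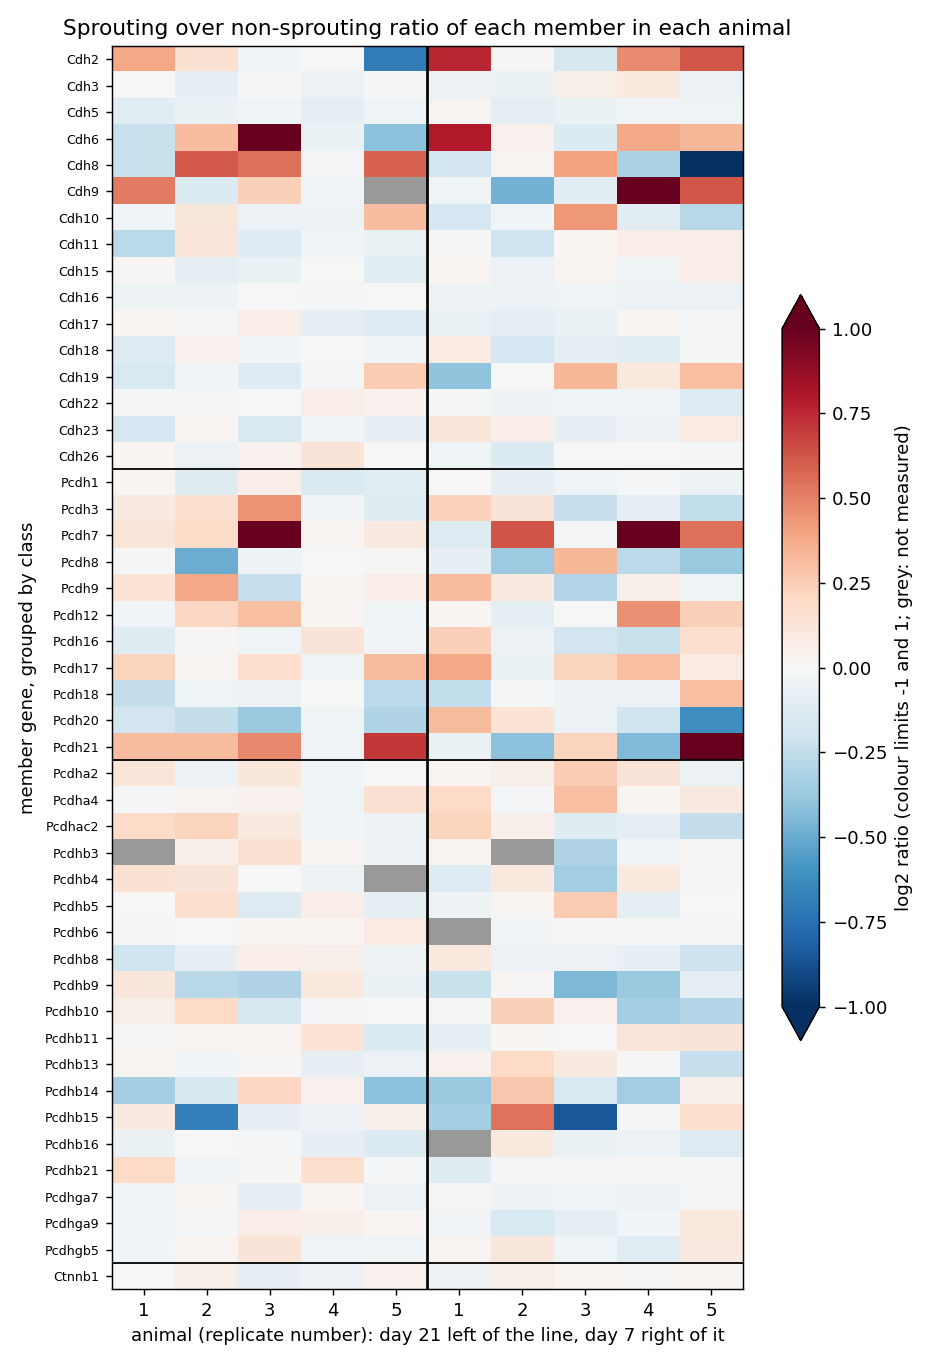
Log2 ratio of sprouting over non-sprouting neurons (colour) for each of 47 members (rows, grouped as cadherins, other protocadherins, clustered protocadherins and Ctnnb1) in each animal (columns, day 21 left of the line and day 7 right of it). Strong colours stand in single animals of Pcdh7, Cdh8, Cdh9, Cdh6, Pcdh21 and Pcdhb15, and the column of day 21 replicate 4 is pale, with ratios between -0.14 and 0.17.

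Outside the clusters, Pcdh7 had the largest mean ratio of all members at day 7 and, beside Pcdh21, at day 21. At day 21 Pcdh21 lay above it with the processed signals (0.45 against 0.44), with median centring (0.34 against 0.33) and without replicate 3 (0.325 against 0.105). Pcdh7 is a delta-1 protocadherin, a group with long cytoplasmic tails that acts in axon growth. It read 0.12, 0.19, 1.46, 0.02 and 0.09 at day 21, against -0.13, 0.63, -0.02, 1.74 and 0.55 at day 7. Sprouting neurons were higher in 3 of 5 animals at day 7 and in the day 21 animals, where replicate 4 was close to 0, and 1 animal of each day stood far above the rest. The means were 0.38 ± 0.61 at day 21 and 0.55 ± 0.74 at day 7 (SD, n = 5 each), 1.30-fold and 1.47-fold higher in sprouting neurons. The mean of both days, 0.47 with a 95% interval of 0.04 to 0.89, had an unadjusted p of 0.0343 and an adjusted p of 0.433 (limma). Without replicate 3 the day 21 mean was 0.105, and without replicate 4 the day 7 mean was 0.258.

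The 2 arrays of the day 7 animal at 1.74 read 1.70 and 1.77, and those of the day 21 animal at 1.46 read 1.44 and 1.49. Both readings were thus repeated with the dyes swapped. The median ratio of 11 oligodendrocyte markers was 0.64 in that day 7 animal, where Cdh9 was also high, and -0.40 in that day 21 animal. Over the 5 animals of each day it ranged from -0.40 to 0.33 at day 21 and from -0.21 to 0.92 at day 7. The part of oligodendrocyte RNA in the Pcdh7 and Cdh9 values was not tested.

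Pcdh17, a delta-2 protocadherin that in mouse recruits actin regulators to contacts between axons, had the smallest unadjusted p of the members over both days. Its ratios were 0.22, 0.02, 0.17, -0.04 and 0.32 at day 21, against 0.39, -0.07, 0.22, 0.30 and 0.08 at day 7. Sprouting neurons were higher in 4 of 5 animals of each day. The means were 0.14 ± 0.15 at day 21 and 0.19 ± 0.18 at day 7 (SD, n = 5 each), 1.10-fold at day 21 and 1.14-fold at day 7. The day 7 mean was 0.41 with the processed signals and 0.12 without background subtraction, and the day 21 mean was 0.09 without background subtraction. The mean of both days was 0.16 with an interval of 0.05 to 0.27, and it did not pass over all genes (limma, unadjusted p = 0.00736, adjusted p = 0.405). The 2 arrays of an animal had the same sign for Pcdh17 in 6 of 10 animals.

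Pcdh20 was lower in sprouting neurons in every day 21 animal. It read -0.18, -0.24, -0.37, -0.04 and -0.30 at day 21, against 0.32, 0.14, -0.06, -0.20 and -0.62 at day 7. The day 21 values were all on one side, while the day 7 values reached from well above 0 to well below it. The day 21 mean was -0.23 ± 0.13 (limma, unadjusted p = 0.0641, adjusted p = 0.84), and -0.273 without replicate 4. At day 7 the mean was -0.08 ± 0.36, and 0.051 without replicate 5.

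The array's Pcdh21, now named Cdhr1 and known from photoreceptors and olfactory bulb, read 0.31, 0.32, 0.48, -0.04 and 0.71 at day 21, against -0.07, -0.41, 0.22, -0.44 and 1.29 at day 7. Its means of 0.36 ± 0.28 at day 21 and 0.12 ± 0.71 at day 7 did not pass (limma, adjusted p = 0.862 and 0.882), and without day 7 replicate 5 the day 7 mean was -0.177. Pcdh8, which acts in activity-driven removal of N-cadherin from synapses, averaged -0.11 ± 0.22 at day 21 and -0.15 ± 0.29 at day 7. Pcdh18 averaged -0.12 ± 0.12 at day 21, with replicate 4 at 0.00, and averaged -0.01 ± 0.20 at day 7, where median centring gave 0.10. Pcdh12, an endothelial protocadherin, averaged 0.10 ± 0.15 at day 21 and 0.12 ± 0.22 at day 7.

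Pcdh9, a delta-1 protocadherin with wide expression in cortex, was read by 4 probes that differed. The brightest averaged 0.08 ± 0.22 at day 21 and 0.03 ± 0.22 at day 7, and with median centring its day 7 mean was -0.19. The next brightest averaged 0.08 ± 0.31 at day 21 and 0.22 ± 0.07 at day 7, with 0.24, 0.11, 0.19, 0.29 and 0.26 in the day 7 animals. That probe was singled out after its values were seen and gets no test. The remaining members of this class were small: Pcdh1 averaged -0.06 ± 0.10 at day 21 and -0.04 ± 0.04 at day 7, and Pcdh16, now Dchs1, -0.01 ± 0.09 at day 21 and -0.01 ± 0.21 at day 7. With the processed signals the day 21 means were 0.09 for Pcdh1 and 0.11 for Pcdh16, and with median centring the day 7 mean of Pcdh1 was 0.05. The array's Pcdh3 carries an accession now assigned to the beta cluster gene Pcdhb12, and averaged 0.11 ± 0.22 at day 21 and -0.04 ± 0.22 at day 7 (0.01 with the processed signals). The array's Pcdhb13, counted among the clustered genes, carries the same current name.

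**Figure D3:**
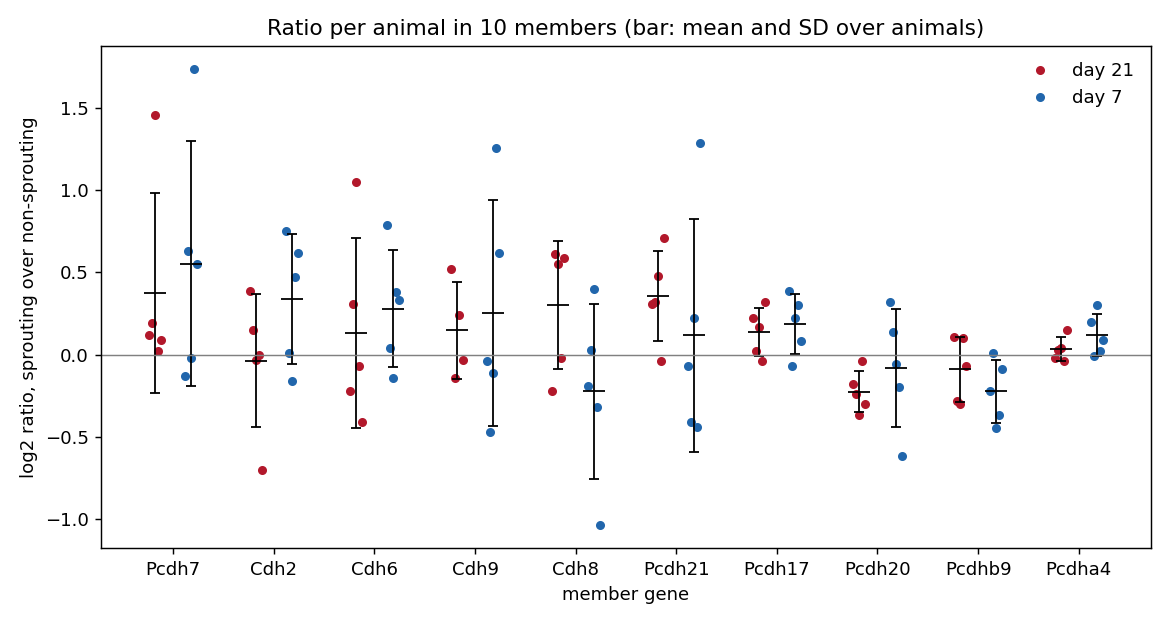
Log2 ratio of sprouting over non-sprouting neurons per animal (points, vertical axis) for 10 members, day 21 in red left of day 7 in blue, with the mean and SD over animals in black. Pcdh7 has 1 animal above 1.4 on each day, Cdh8 has means on opposite sides of 0, and the day 21 animals of Pcdh20 all lie below 0.

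The clustered protocadherins are switched on from separate promoters, 1 per variable exon, and in mouse and human many of these hold a conserved element with the core CGCT, near which the factor CTCF binds. RefSeq promoter windows of the GRCr8 build, from 250 bases before to 50 after a gene's start, were found for 34 of the 50 members. The 10 letters most often shared by the beta cluster windows were GGTGGCGCTG, and they were chosen after the windows were seen. Among letters shared equally often the choice preferred those that hold CGCT, so its presence there is no finding. The share in beta members was counted on windows that supplied the letters. Searched on both strands, GGTGGCGCTG occurred in 10 of 12 beta cluster members with a window (83.3%), in 0 of 3 alpha and gamma members, in 0 of 19 other members and in 0.221% of 33469 windows of all genes. CGCT alone occurred in 11 of those 12 and in 60.9% of all windows. Stretches of 6 beta cluster members are shown, among them the beta genes that lead the comparisons below (Pcdhb9, Pcdhb5 and Pcdhb14), 5′ to 3′ on the plus strand, with the shared letters in capitals.
Pcdhb9, chr18:29379238-29379297: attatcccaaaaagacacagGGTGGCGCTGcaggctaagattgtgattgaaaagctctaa
Pcdhb5, chr18:29302394-29302453: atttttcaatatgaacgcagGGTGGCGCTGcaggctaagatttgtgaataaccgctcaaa
Pcdhb14, chr18:29431799-29431858: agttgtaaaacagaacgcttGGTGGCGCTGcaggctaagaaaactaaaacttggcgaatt
Pcdhb21, chr18:29492139-29492198: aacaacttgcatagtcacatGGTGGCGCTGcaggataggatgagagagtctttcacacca
Pcdhb3, chr18:29285594-29285653: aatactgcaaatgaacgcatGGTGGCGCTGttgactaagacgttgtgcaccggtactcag
Pcdhb4, chr18:29292201-29292260: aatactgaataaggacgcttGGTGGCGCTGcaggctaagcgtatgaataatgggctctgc
In these 6 stretches the shared letters begin between 52 and 69 bases before the gene's start. In the 4 not shown they begin 72 bases before it in Pcdhb10, 208 in Pcdhb8 and 229 in Pcdhb6, and after the start in Pcdhb16. The members without them were Pcdhb1 and Pcdhb15, and none of the sequence data bear on binding.

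As a class the clustered protocadherins had members on both sides of 0. At day 21, 12 of 19 tested were higher and 7 lower in sprouting neurons, with a median ratio of 0.014 and a range of -0.13 to 0.09. At day 7 the split was 6 higher to 13 lower, the median -0.040 and the range -0.22 to 0.12. In the beta cluster alone the split was 7 higher and 6 lower at day 21, and 3 higher and 10 lower at day 7, with a median of 0.002 at day 21 and -0.055 at day 7. Under the 4 other scalings the beta cluster median lay between -0.03 and 0.04 at day 21 and between -0.09 and -0.04 at day 7. The median of the whole class per animal ran from -0.050 to 0.021 at day 21 and from -0.041 to 0.035 at day 7, so that the animals of each day lay on both sides of 0. Array names here are of an old annotation, and alpha and gamma isoforms share their last exons while beta genes are related copies. Signal may thus be split between genes, which was not checked, and single isoforms are uncertain.

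Pcdhb9 was the beta gene with the smallest unadjusted p. Its ratios were 0.11, -0.28, -0.30, 0.10 and -0.07 at day 21, against -0.22, 0.01, -0.45, -0.37 and -0.09 at day 7. Sprouting neurons were lower in 3 of 5 animals at day 21 and in 4 of 5 at day 7. The means were -0.09 ± 0.20 at day 21 and -0.22 ± 0.19 at day 7 (SD, n = 5 each), and the day 7 mean was 1.17-fold lower in sprouting neurons. It did not pass over all genes (limma, unadjusted p = 0.017, adjusted p = 0.476). The mean kept its sign under the other scalings, at -0.31 with median centring and -0.20 without background subtraction.

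Pcdhb15 and Pcdhb14 had the widest spread of the beta genes. Pcdhb15 read 0.09, -0.68, -0.08, -0.05 and 0.05 at day 21, against -0.34, 0.54, -0.85, -0.01 and 0.17 at day 7. Pcdhb14 read -0.33, -0.16, 0.21, 0.04 and -0.41 at day 21, against -0.37, 0.27, -0.15, -0.35 and 0.05 at day 7. Both had animals on each side of 0 on each day. The other 10 beta genes tested had means between -0.06 and 0.07 at day 21 and between -0.07 and 0.04 at day 7, though with the processed signals Pcdhb16 was at -0.55 and with the deposited ratios Pcdhb3 at -0.09, both at day 21. Among the 10, Pcdhb5 averaged 0.00 ± 0.12 at day 21 and 0.03 ± 0.13 at day 7.

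In the alpha cluster, the probe named Pcdha4 read -0.02, 0.03, 0.04, -0.04 and 0.15 at day 21, against 0.20, -0.01, 0.30, 0.02 and 0.09 at day 7. Its day 7 mean of 0.12 ± 0.13 had an unadjusted p of 0.0295 and an adjusted p of 0.5 (limma). The probes named Pcdha2 and Pcdhac2 carry accessions that are now also assigned to Pcdha4. Pcdha2 averaged 0.03 ± 0.08 at day 21 and 0.08 ± 0.12 at day 7, and Pcdhac2 0.09 ± 0.12 at day 21 and -0.04 ± 0.18 at day 7, and a second Pcdhac2 probe of almost the same brightness averaged 0.06 ± 0.16 at day 21 and 0.08 ± 0.25 at day 7. With the processed signals the day 21 mean of Pcdha4 turned to -0.06. The gamma genes Pcdhga7, Pcdhga9 and Pcdhgb5 had means between -0.02 and 0.02 at day 21 and between -0.04 and 0.02 at day 7. With the processed signals their day 21 means were -0.27, -0.15 and 0.20 in the order named.

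Beta-catenin had ratios near 0. Ctnnb1 read 0.00, 0.06, -0.08, -0.06 and 0.04 at day 21, against -0.05, 0.06, 0.02, 0.01 and 0.03 at day 7. Its means were -0.01 ± 0.06 at day 21 and 0.01 ± 0.04 at day 7 (SD, n = 5 each), and their signs turned under other scalings, to 0.13 at day 21 with the processed signals and -0.02 at day 7 with median centring. The probe with the highest mean signal was well above background on 40% to 60% of arrays per cell type and day. The second probe, above background on all, averaged -0.07 ± 0.08 at day 21 and 0.08 ± 0.17 at day 7.

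Genes of the family also stand on the array under names the rule did not take, and 17 were found by accession, synonym or description and tested. They were taken by the start of their names, so the catenin-like Ctnnbl1 and Ctnnal1 are among them. At day 21, 5 of the 17 were higher and 12 lower in sprouting neurons, with a median of -0.028, beside 48.9% of all genes higher. At day 7 the split was 10 higher to 7 lower and the median 0.022, beside 46.5% of all genes higher. None was called at an adjusted p under 0.05 (limma), and an unadjusted p under 0.05 was reached by 0 at day 21, beside 5.80% of all genes, and by 1 at day 7, beside 9.49%.

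Pcdh19, a delta-2 protocadherin that pairs with N-cadherin and is linked to an epilepsy in human, had the smallest p among them. It read 0.02, -0.17, 0.10, 0.07 and -0.03 at day 21, against -0.16, -0.39, -0.38, -0.18 and -0.09 at day 7. All 5 day 7 animals were lower in sprouting neurons, while the day 21 animals lay around 0, and the days overlapped, since the lowest day 21 animal lay below 2 day 7 animals. The day 7 mean was -0.24 ± 0.13 (limma, unadjusted p = 0.000995, adjusted p = 0.336), and the day 21 mean was 0.00 ± 0.11. The difference of 0.23 between days had an unadjusted p of 0.00993 and an adjusted p of 0.943. The day 7 mean stayed between -0.37 and -0.24 under the 4 other scalings, and between -0.28 and -0.20 when each animal in turn was left out. Medians of cortical layer markers are given for comparison. The median ratio of 7 upper-layer markers lay between -0.30 and -0.01 in day 21 animals and between -0.42 and 0.01 in day 7 animals, and that of 7 deep-layer markers between -0.08 and 0.07 at day 21 and between 0.04 and 0.31 at day 7. Lhx2, the upper-layer marker with the smallest p at day 7, averaged -0.01 ± 0.23 at day 21 and -0.47 ± 0.19 at day 7. It was lower in 5 of 5 day 7 animals and did not pass (limma, adjusted p = 0.279). Of the 7 upper-layer markers 3 were higher at day 7, with means of 0.04 for Cux1, 0.00 for Cux2 and 0.12 for Rorb. The part of layer in the Pcdh19 value, or in those of the members, was not tested.

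The alpha- and delta-catenins, which join the cadherin complex to actin and steady it at the membrane, were in this second set. Ctnna1 read -0.10, -0.26, -0.17, -0.02 and 0.04 at day 21, against -0.02, 0.34, 0.04, -0.02 and 0.26 at day 7, a difference of -0.22 between days (limma, unadjusted p = 0.0265, adjusted p = 0.943). Ctnna2, the alpha-catenin of neurons, averaged 0.15 ± 0.19 at day 21 and 0.20 ± 0.31 at day 7, higher in 4 of 5 animals of each day, with an adjusted p of 0.434 for the mean of both days (limma). Ctnnd1 averaged -0.06 ± 0.24 at day 21 and -0.01 ± 0.28 at day 7, and Ctnnd2 -0.03 ± 0.06 at day 21 and 0.14 ± 0.29 at day 7. Pcdh10, a delta-2 protocadherin of axon growth, averaged -0.05 ± 0.21 at day 21 and -0.18 ± 0.20 at day 7, and Pcdh11x 0.39 ± 0.41 at day 21 and 0.18 ± 0.75 at day 7.

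Of 91 listed partners of cadherins, protocadherins and beta-catenin, 71 were tested and none was called on either day. An unadjusted p under 0.05 was reached by 6 of 71 at day 21 (1 higher, 5 lower) and by 15 at day 7 (6 higher, 9 lower), beside the 5.80% and 9.49% of all genes. The median ratio of the 71 was -0.003 at day 21 and -0.008 at day 7. Apc, the scaffold of the complex that degrades beta-catenin, read -0.01, 0.11, 0.88, 0.02 and -0.02 at day 21, against 0.26, 0.20, 0.42, 0.92 and 1.07 at day 7. All 5 day 7 animals were higher in sprouting neurons, with a mean of 0.57 ± 0.40 (limma, unadjusted p = 0.00417, adjusted p = 0.429). Its 2 highest day 7 animals were those with oligodendrocyte marker medians of 0.64 and 0.92, and its highest day 21 animal was the one at -0.40; the part of those cells was not tested.

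The other partners with the smallest p at day 7 were lower in sprouting neurons. Celsr3, a 7-pass cadherin needed for axon tracts, averaged -0.02 ± 0.11 at day 21 and -0.15 ± 0.09 at day 7, lower in all 5 day 7 animals. Ptpn1, a phosphatase that binds N-cadherin, averaged 0.00 ± 0.05 at day 21 and -0.21 ± 0.19 at day 7. Cyfip2, of the actin-regulating WAVE complex, averaged 0.02 ± 0.10 at day 21 and -0.27 ± 0.24 at day 7. At day 21 Fyn, a kinase downstream of clustered protocadherins, was higher in 5 of 5 animals at 0.18 ± 0.09, and Ptk2b, a kinase that alpha and gamma protocadherins inhibit in mouse, was lower in 5 of 5 at -0.34 ± 0.28. At day 7 Fyn averaged 0.10 ± 0.17 and Ptk2b -0.27 ± 0.36. Arvcf, a delta-catenin, averaged -0.13 ± 0.14 at day 21 and -0.11 ± 0.08 at day 7, and Ctcf -0.13 ± 0.14 at day 21 and -0.06 ± 0.12 at day 7. Their adjusted p was 0.84 for each day 21 value and 0.429 to 0.453 for each day 7 value named first (limma).

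Channel levels, put on a common scale over arrays, show how each cell type differed between the cohorts. Day 21 was lower than day 7 for 31 of 47 members in sprouting neurons and for 32 of 47 in non-sprouting neurons, with median differences of -0.082 and -0.066, beside -0.051 and -0.049 over all genes. None was called in either cell type, as for 0% of all genes. More of all genes were lower too, since 41.4% were higher at day 21 in sprouting neurons and 41.0% in non-sprouting neurons. An unadjusted p under 0.05 was reached by 4 members in sprouting neurons, beside 8.91% of all genes, and all 4 were lower, beside 6.52% lower and 2.39% higher. In non-sprouting neurons it was reached by 6, beside 9.10%, with 5 lower, beside 6.73%, and 1 higher, beside 2.38%. Levels of the 2 days did not overlap for 0 of 47 members in either cell type, beside 1.57% of all genes in sprouting and 1.55% in non-sprouting neurons. Day and cohort cannot be told apart in these levels.

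Pcdhb9 was lower at day 21 in both cell types. Sprouting neurons had 7.95, 7.92, 8.42, 8.13 and 7.72 log2 units at day 21, against 8.25, 8.95, 8.40, 8.19 and 8.31 at day 7. Non-sprouting neurons had 7.84, 8.20, 8.72, 8.03 and 7.80 at day 21, against 8.47, 8.94, 8.85, 8.56 and 8.40 at day 7. In each cell type 4 of 5 day 21 animals lay below the lowest day 7 animal. The differences were -0.39 in sprouting neurons (limma, adjusted p = 0.558) and -0.53 in non-sprouting neurons (adjusted p = 0.508).

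Pcdhb5 and Pcdh20 had the same direction in both cell types. For Pcdhb5 the level averaged 6.91 ± 0.22 at day 21 and 7.26 ± 0.21 at day 7 in sprouting neurons, and 6.91 ± 0.18 at day 21 and 7.23 ± 0.24 at day 7 in non-sprouting neurons. Pcdh20 averaged 7.33 ± 0.22 at day 21 and 7.81 ± 0.42 at day 7 in sprouting neurons, and 7.55 ± 0.17 at day 21 and 7.89 ± 0.29 at day 7 in non-sprouting neurons. Cdh6 averaged 9.25 ± 0.48 at day 21 and 9.81 ± 0.35 at day 7 in sprouting neurons, and 9.12 ± 0.58 at day 21 and 9.53 ± 0.70 at day 7 in non-sprouting neurons. Cdh3, the P-cadherin of epithelia, ran the other way, at 8.43 ± 0.66 at day 21 and 7.81 ± 0.28 at day 7 in sprouting neurons and at 8.47 ± 0.63 at day 21 and 7.82 ± 0.21 at day 7 in non-sprouting neurons, and its ratio was near 0 on both days.

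Pcdh7 had higher means at day 21 in both cell types, 10.54 ± 0.59 against 9.77 ± 1.02 at day 7 in sprouting neurons and 10.17 ± 0.62 at day 21 against 9.22 ± 0.92 at day 7 in non-sprouting neurons (limma, adjusted p = 0.575 and 0.548). For Cdh8 the sprouting level averaged 9.59 ± 0.62 at day 21 and 9.07 ± 0.50 at day 7, while the non-sprouting level averaged 9.29 ± 0.39 at day 21 and 9.30 ± 0.21 at day 7. Neither difference passed. With scan day as a block, a fit added after the data were seen, 0 members had an unadjusted p under 0.05 in sprouting neurons and 1 in non-sprouting neurons. The share of all genes in that fit is not given here. Comparisons within a scan day left out day 7 replicate 3, whose arrays were scanned on different days. In the scan days that then hold both cohorts, Pcdhb9 in sprouting neurons differed by -0.14 (2 day 21 animals, 1 day 7 animal) and by -0.47 (1 each). Pcdh20 differed by 0.18 and -0.58 there. In non-sprouting neurons the same comparisons gave 0.06 and -0.76 for Pcdhb9, and -0.13 and -0.48 for Pcdh20.

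**Figure D4:**
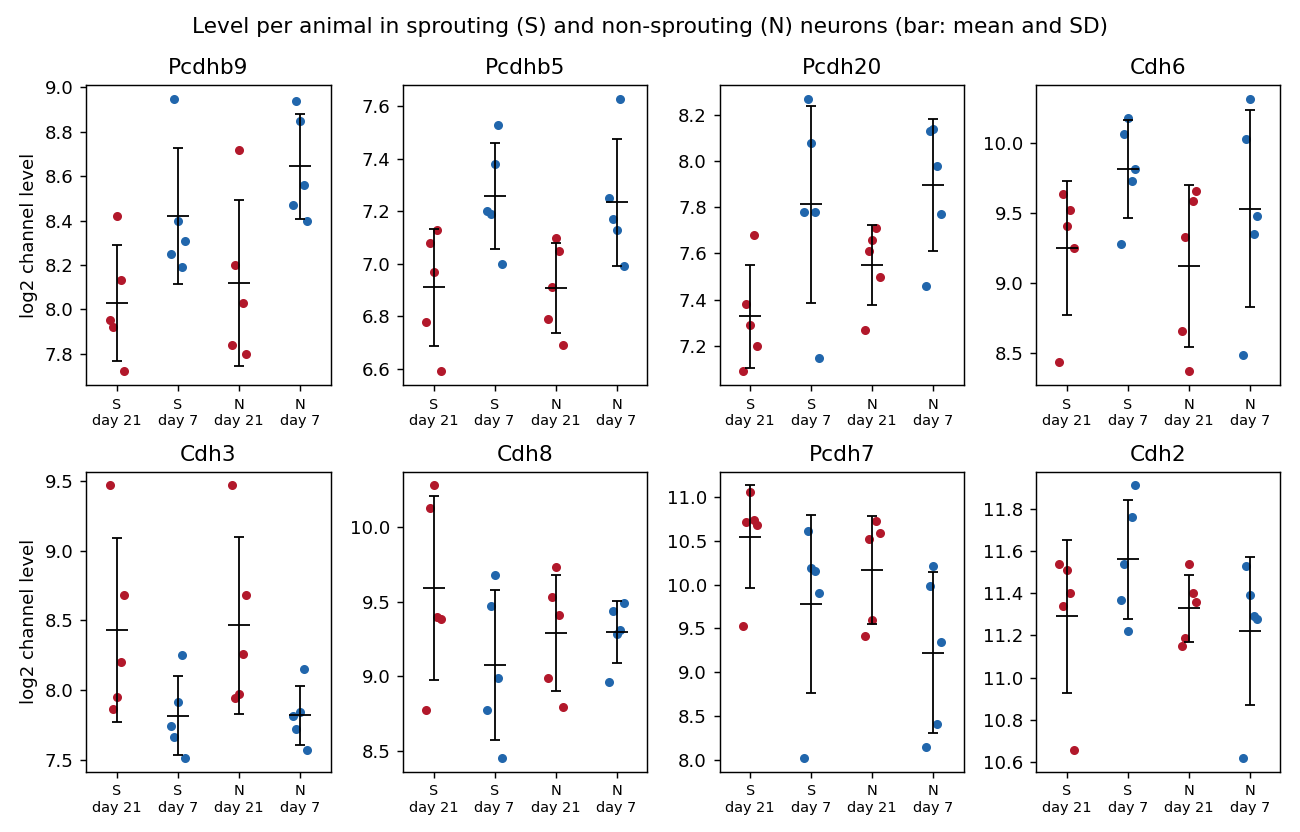
Channel level in log2 units (vertical axis, own scale per gene) of 8 members in sprouting (S) and non-sprouting (N) neurons at day 21 (red) and day 7 (blue), 1 point per animal, with the mean and SD. Pcdhb9, Pcdhb5 and Pcdh20 are lower at day 21 in both cell types, with animals of the 2 days overlapping in each panel.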

How the data were processed

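Each array compared amplified RNA of sprouting and non-sprouting neurons of 1 rat, and the number of arrays limits the precision. Per the file headers, spot intensities were deposited as read by Agilent Feature Extraction 9.1.3.1, with mean signals, local background and flags. The deposited log2 ratios (20 columns used, 20 of the same table not used, 75 values missing) were matched to their own arrays, and their normalization is not given in the sources used here. From the intensities, with limma 3.58.1 in R 4.3.3, background was corrected by normexp on mean signals (offset 50), ratios were normalized by loess within arrays, with 2256 control spots at weight 0 and outlier-marked spots left out, turned by dye, and averaged over spots of a probe and over an animal's 2 arrays where both measured it. A probe was kept if a share of 0.5 or more of the arrays of some cell type and day had it well above background and 3 animals per day measured it. Each gene was read from its brightest kept probe, giving 33094 genes. A mean per day was fitted over the 10 animals (lmFit, eBayes, two-sided), with p-values adjusted over all genes by Benjamini-Hochberg and calls at an adjusted p under 0.05. Levels came from loess and Aquantile channel values. The steps were tested on simulated data. Replicate numbers do not pair animals, since the days were separate cohorts. Array names were matched to the GRCr8 gene table only to name them: 10658 probes matched through an accession, 4647 through a symbol and 3885 through a synonym, while 21822 had no match.

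Members were selected per comparison, up to 6 per direction with the smallest unadjusted p. For ratios the same sign was needed in at least 4 of 5 animals. Added to them were a set of cadherins, protocadherins and catenins known from cortex, and every clustered protocadherin by value or range. Of the partners, up to 4 per day were named. The text departs from this in places. Cdh15, Cdh18 and Cdh23 were selected but have no ratios printed for single animals or days. Pcdh1, Pcdh3, Pcdh16 and Cdh19 have ratios printed without being selected. The members, gene lists and tests were chosen with earlier results of these data known. Alternatives were other background and scaling choices, filters, probe rules, fits and left-out animals.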

Additional observations from a re-analysis of the deposited data

Results flagged for a closer look

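In 88 groups of 5 animals, 1 per tested member and day with all animals measured, 6 held an animal far from the other 4 by Dixon's test; chance flags about 1 in 20 groups. Pcdh7 read 1.46 in day 21 replicate 3, against 0.02 to 0.19 in the other day 21 animals. In day 21 replicate 2, Pcdh8 read -0.50, against -0.05 to 0.01 in the others, and Pcdhb15 read -0.68, against -0.08 to 0.09. Cdh11 read -0.20 in day 7 replicate 2, against 0.01 to 0.07, and Cdh26 read -0.14 in the same animal, against -0.04 to 0.00. Pcdhb21 read -0.12 in day 7 replicate 1, against -0.02 to 0.01.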

How the results depend on the processing

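No member was called at an adjusted p under 0.05 under any alternative run, and the same held for the partners except at day 7, where 4 were called when the 20 arrays were fitted singly with a dye term and animals as random blocks. The share of all genes at the same threshold is not given for the alternative runs. Counts of partners and members in those runs can thus not be set against a background. The counts of members with an unadjusted p under 0.05 moved more. Only 12 of the 47 members were well above background in both channels of all arrays. Counts and medians among members well above background everywhere rest on those 12, so they cannot be set directly beside those of all 47. At day 21 the count, 1 as reported, was 2 without background subtraction, 3 with the processed signals, 2 with the deposited ratios, 0 among members well above background everywhere, 4 with each day fitted alone, 4 in the fit of 20 arrays and 3 with scan day as a block. At day 7 the count, 4 as reported, was 1 with the processed signals, 1 among members well above background everywhere, 2 with each day fitted alone and 2 with scan day as a block. For the mean of both days, 6 as reported, it was 2 among members well above background everywhere, 3 with scan day as a block and 3 with the replicate number as a block. Numbers pair no animals here, and the replicate block changed no call. For day 21 minus day 7, 0 as reported, it was 1 without background subtraction, 1 with median centring, 1 with the mean of all probes, 2 in the fit of 20 arrays and 2 with scan day as a block. The median ratio of all members was 0.034 at day 21 with median centring, 0.058 at day 21 and 0.017 at day 7 among members well above background everywhere, and -0.006 at day 7 with the mean of all probes. For levels, no normalization between arrays gave 1 member in sprouting and 1 in non-sprouting neurons, no background subtraction gave 2 in sprouting neurons, and scan day as a block, added after seeing the data, gave 0 in sprouting and 1 in non-sprouting neurons. Leaving out 1 animal at a time, the counts ran from 0 (without day 21 replicate 1) to 4 (without day 7 replicate 5) at day 21, from 1 (without day 7 replicate 4) to 5 at day 7, from 4 to 7 for the mean of both days, from 0 to 4 (without day 7 replicate 3) for the difference, from 0 (without day 7 replicate 3 or day 21 replicate 5) to 6 for sprouting levels and from 2 (without day 21 replicate 5) to 13 (without day 7 replicate 5) for non-sprouting levels. The median ratio of all members ran from -0.012 to 0.007 at day 21 and from -0.036 to -0.010 at day 7. Of 2000 values of single members under alternatives, 1940 moved by less than the spread between animals, 60 moved by more and 98 turned in direction; the cause was not tested. Signal over background limits the dim members, whose ratios the offset pulls towards 0.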
